A study of Homo sapiens with 22 samples.

Results

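The RNA of LN308 cells after 6 h of tunicamycin was compared with that after 2 h of the same drug. The comparison holds 6 of the 22 libraries of the series, chosen by their labels: replicates 1, 2 and 3 at 6 h and replicates 1, 2 and 3 at 2 h. LN308 is an established human line that the labels describe as glial and derived from an astrocytoma. Cells at both times received tunicamycin at 2.5 µg/ml, and the protocol names DMSO, the solvent, as the control. No solvent-treated library at 2 h or 6 h was used, so change with time in culture and change with the drug cannot be told apart. The labels do not say that replicates were separate cultures. With the replicate number as a block, the p-values measure how far the difference between the times varies from 1 replicate number to another.

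Tunicamycin blocks the first step in building the N-linked glycan, and glycoproteins that enter the endoplasmic reticulum (ER) without it fold poorly. The unfolded protein response (UPR) reads this through the membrane sensors IRE1, PERK and ATF6. IRE1 splices the mRNA of the transcription factor XBP1, PERK phosphorylates the initiation factor eIF2 and lets ATF4 be translated, and ATF6 is cut free in the Golgi to act on chaperone genes. The contrast of a later with an earlier time addresses which mRNAs differ between 6 h and 2 h of the drug. By itself it does not tell a change that goes on from a late start or a return towards the untreated level.

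Total counts per library ran from 114935867 to 166586145 at 6 h and from 109457859 to 130792583 at 2 h, over 58278 gene entries. The first principal component of the 6 libraries held 52.0% of the variance and set replicate 1 of both times apart from replicates 2 and 3, and the second, with 33.1%, separated the times. Replicate 1 also held less mitochondrial mRNA, 0.479% of counts at 6 h and 0.443% at 2 h, while replicate 2 held 1.39% at 6 h and 1.61% at 2 h. The part of this batch in the results was not tested beyond the block and the values by replicate. Untreated replicate 1, used here for levels alone, had counts for 53489 genes, against 38264 to 40331 in the other RNA libraries. Levels are given as CPM, counts scaled to a common library total. Of 14 glial and glioma markers, 9 reached 1 CPM in every library, with vimentin (VIM) at 1261 to 1616 CPM at 6 h and 1192 to 1390 CPM at 2 h. AQP4 and CHI3L1, also on that list, were too low to be tested.

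With the replicate number as a block, 8503 of the 27678 genes tested were called, that is, had an adjusted p under 0.05 (edgeR's quasi-likelihood test, Benjamini-Hochberg adjustment). At 6 h 4358 genes were higher than at 2 h (15.7% of those tested) and 4145 were lower (15.0%). Of the called genes 8490 had the same sign in all 3 pairs, which a fit blocked on the replicate number favours. Over all genes tested 31.2% were higher and 30.5% lower in all 3 pairs. Every 6 h library lay above every 2 h library for 13.3% of the genes tested and below for 11.1%. A change of at least 2-fold was fitted for 1402 of the higher and 1096 of the lower genes. At an unadjusted p under 0.05 stood 11730 genes, where 1384 would with no change. Without the block 737 genes were called, 542 higher and 195 lower, all of them among the 8503. The block moves the number of calls this far, so counts without it follow those of each gene group. Leaving out replicate 2 at both times gave 3937 calls and leaving out replicate 3 gave 5435. Scaling by library size alone moved the median log2 fold change of all genes to -0.12 and the split to 3181 higher and 6039 lower, and changes below are relative to the TMM-scaled median of 0.00. CPM are scaled by TMM, a trimmed mean of the ratios between libraries, and fold changes are log2 values of 6 h over 2 h.

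**Figure D1:**
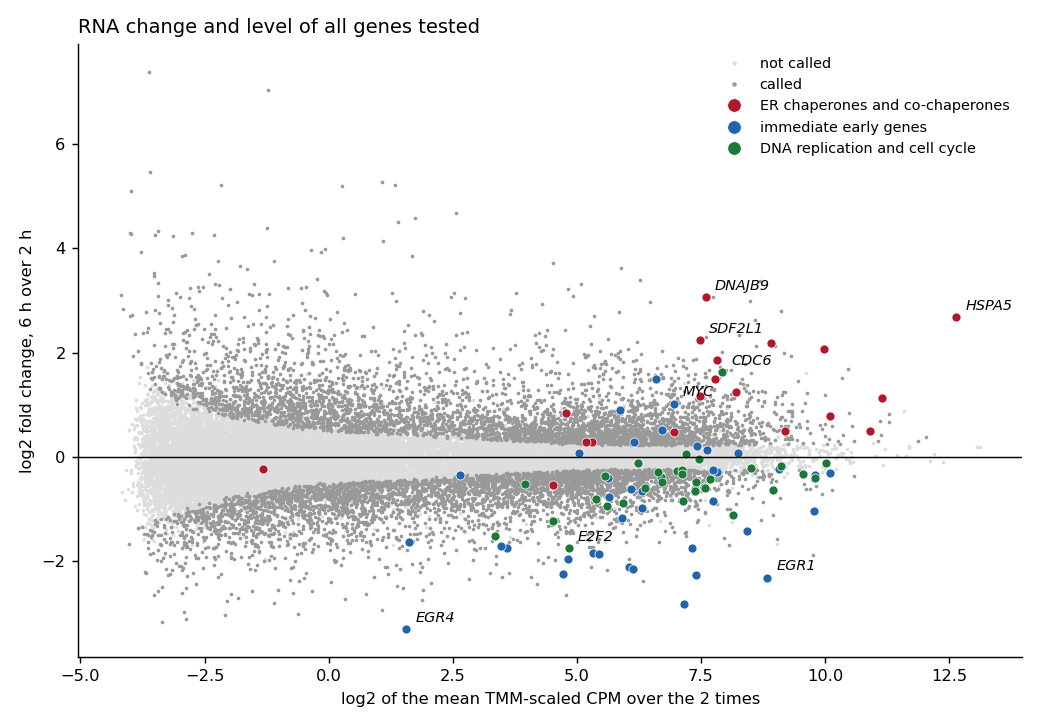
Log2 fold change of 6 h over 2 h (vertical axis) against the log2 of the mean TMM-scaled CPM over both times (horizontal axis) for the 27678 genes tested, called genes in dark grey and others in light grey. ER chaperones (red) lie mostly above 0 with HSPA5 at the highest level, and immediate early genes (blue) and genes of DNA replication and the cell cycle (green) lie mostly below 0, with CDC6 and MYC above it.

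Most ER chaperones rose: of the 19 tested, 17 were called higher and 1 lower, with a median log2 fold change of 1.14 against 0.00 over all genes. HSPA5, which encodes the Hsp70 chaperone BiP, stood at 6576, 11839 and 14454 CPM at 6 h and at 772, 2331 and 2346 CPM at 2 h. Its 6 h libraries lay above every 2 h library, and the fitted change was 2.69 ± 0.15 (SE; adjusted p = 7.77e-05 by edgeR). DNAJB9, the J-domain cofactor that regulates IRE1 through BiP, had 372, 290 and 380 CPM at 6 h and 36.0, 45.4 and 42.2 CPM at 2 h. That was the steepest rise on the list, at 3.07 ± 0.14. SDF2L1, a partner of the ER J-domain proteins, had 228, 299 and 351 CPM at 6 h and 43.8, 73.7 and 70.3 CPM at 2 h (2.24 ± 0.09). DNAJC3 (2.18), the BiP exchange factor HYOU1 (2.07), the secreted factors CRELD2 (1.85) and MANF (1.50) and the Hsp90 of the ER, HSP90B1 (1.14), rose in the same fit. The lectin chaperones moved less, with CALR (calreticulin) at 0.79 and CANX (calnexin) at 0.50. SDF2, the paralogue of SDF2L1, fell by 0.54 on the log2 scale, and CDNF, the paralogue of MANF, stood at -0.22 with an adjusted p of 0.477 at under 1 CPM. The median of the list was 1.34, 0.91 and 1.07 in pairs 1, 2 and 3. Without the block 9 members were called higher and 0 lower.

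The promoters of SDF2L1 and HSPA5 are printed because they hold the ER stress elements that ATF6 and NF-Y are known to bind. Each is the 250 bases before the start in RefSeq's GRCh38.p14 table, in lower case with the element in capitals. In SDF2L1 (chr22:21642052-21642301, plus strand) it is ERSE-II at -188 to -178, and in HSPA5 (chr9:125241344-125241593, minus strand), added after its values were seen, it is ERSE at -66 to -48, both counted from the start.
SDF2L1: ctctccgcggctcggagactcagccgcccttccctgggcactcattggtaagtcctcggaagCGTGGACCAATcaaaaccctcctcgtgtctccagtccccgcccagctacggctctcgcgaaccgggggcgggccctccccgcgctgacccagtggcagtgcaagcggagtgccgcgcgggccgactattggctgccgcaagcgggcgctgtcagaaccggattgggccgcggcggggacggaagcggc
HSPA5: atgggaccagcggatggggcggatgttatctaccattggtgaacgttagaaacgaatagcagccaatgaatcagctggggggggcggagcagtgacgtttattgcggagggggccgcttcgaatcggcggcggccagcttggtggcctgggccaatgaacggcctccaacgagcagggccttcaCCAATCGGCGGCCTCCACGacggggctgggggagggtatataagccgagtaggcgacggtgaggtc
ERSE (CCAAT, a gap of 9 bases, then CCACG, on either strand) was found in 5 of the 16 called higher chaperones with a promoter in the table, HSPA5, HSP90B1, CRELD2, CANX and CALR. ERSE-II (ATTGG, any 1 base, then CCACG, on either strand) was found in HYOU1 and SDF2L1. Over the 27305 promoters of the table ERSE stood in 0.0806% and ERSE-II in 0.0513%. Among all genes called higher 12 of 2539 promoters held ERSE (0.473%), among those called lower 0 of 2620, and among those tested and not called 3 of 8593 (0.0349%). A match describes these letters and is no evidence of binding.

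**Figure D2:**
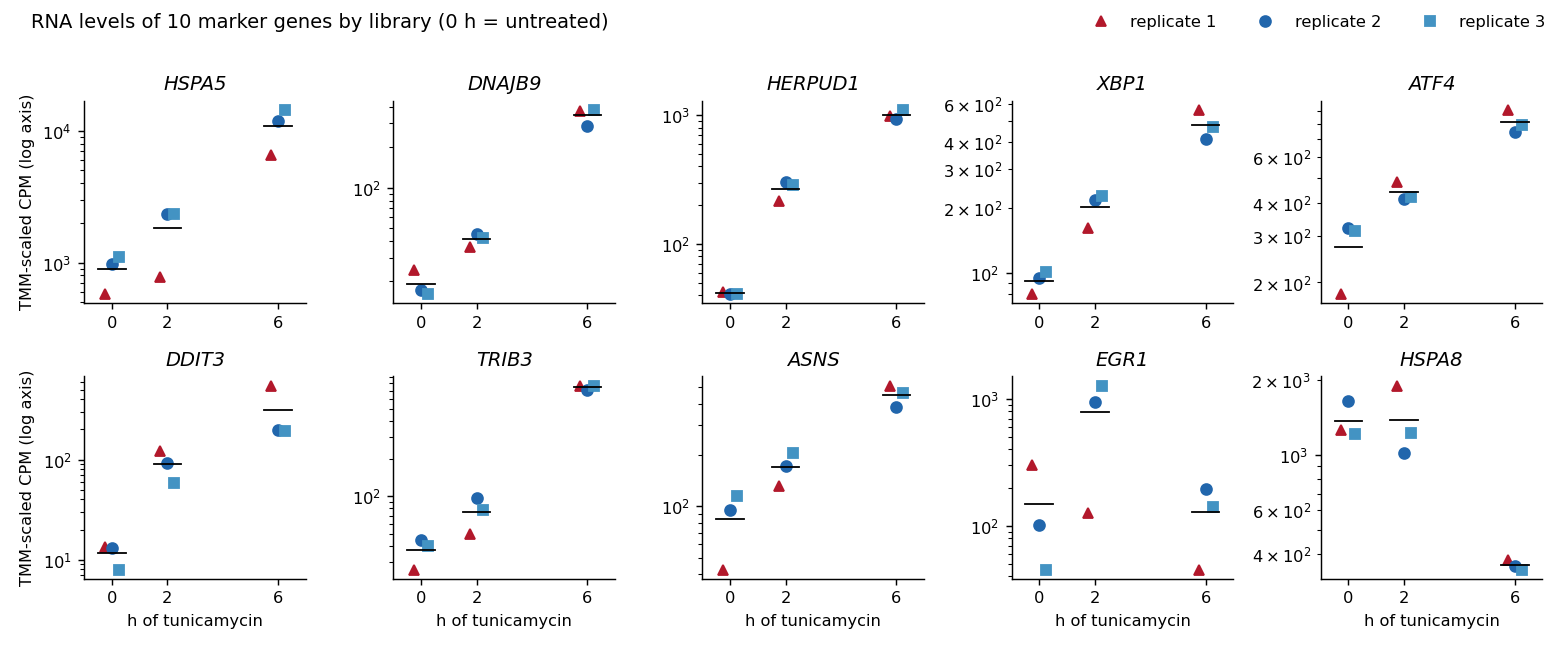
TMM-scaled CPM (log axis) of 10 marker genes in each RNA library, at 0 h (untreated), 2 h and 6 h of tunicamycin, with one symbol per replicate and a bar at the mean of 3. The 8 UPR genes are highest at 6 h in every replicate, EGR1 is at its highest at 2 h in replicates 2 and 3, and HSPA8 lies between 347 and 378 CPM at 6 h.

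Enzymes that form and rearrange disulfide bonds or isomerise proline rose for the most part, 14 of 23 tested against 2 that fell, with a median of 0.63. ERO1B, an oxidase that recharges protein disulfide isomerase, had 135, 98.9 and 132 CPM at 6 h and 23.7, 26.4 and 28.4 CPM at 2 h (2.21 ± 0.12). Every 6 h library lay above every 2 h library. PDIA4 had 2525, 1714 and 2207 CPM at 6 h and 617, 625 and 730 CPM at 2 h (1.69 ± 0.12). PDIA5 (1.96), FKBP14 (1.85), FKBP11 (1.83) and TXNDC11 (1.65) also rose. TMX1 (-0.32) and the prolyl isomerase FKBP7 (-0.82) fell, and FKBP9, FKBP10, PRDX4 and TXNDC12 were between -0.02 and 0.08 and not called. Without the block 6 rose and 0 fell.

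In ER-associated degradation, which carries misfolded proteins out of the ER to the proteasome, 18 of 28 members rose and 0 fell (median 0.51). The ubiquitin ligase SYVN1 (HRD1) had 171, 361 and 427 CPM at 6 h and 31.8, 83.3 and 83.7 CPM at 2 h (2.30 ± 0.09), with an adjusted p of 0.0601 without the block. Its adaptor SEL1L had 950, 687 and 858 CPM at 6 h and 178, 198 and 191 CPM at 2 h (2.12 ± 0.12). HERPUD1, which organises the same ligase complex, had 991, 940 and 1102 CPM at 6 h and 215, 303 and 287 CPM at 2 h (1.93 ± 0.12). In untreated cells HERPUD1 stood at 42.1, 41.2 and 41.1 CPM, so both treated times lay above the untreated libraries. WFS1 (1.66), DERL3 (1.64), DERL2 (1.52), SELENOS (1.51), the mannosidase-like EDEM1 (1.40), ERLEC1 (1.27) and the conjugating enzyme UBE2J1 (1.28) rose. The cytosolic extraction factors UFD1 (-0.07) and NPLOC4 (-0.17) were not called. Without the block 9 rose and 0 fell.

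The HERPUD1 promoter (chr16:56931892-56932141, plus strand) is shown because it holds both an ER stress element, ERSE-II at -117 to -107, and the ATF4 and C/EBP composite TGATGNAA on the other strand at -176 to -169, each in capitals.
HERPUD1: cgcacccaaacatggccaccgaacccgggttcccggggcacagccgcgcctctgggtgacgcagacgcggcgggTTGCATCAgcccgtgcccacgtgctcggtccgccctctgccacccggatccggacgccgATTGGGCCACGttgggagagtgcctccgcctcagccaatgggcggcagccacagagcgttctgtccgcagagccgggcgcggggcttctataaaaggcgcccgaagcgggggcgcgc
The composite stood in 3.19% of all promoters in the table and in 1 of the 15 called higher members of the list with a promoter. The UPRE core TGACGTG, bound by XBP1 and ATF6, was in UBE2J1, UBXN4 and VCP and in 1.71% of all promoters.

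Genes for entry into the ER and for exit from it mostly rose. Of 23 signal recognition and translocation genes 18 rose and 0 fell (median 0.80), a count that was 18 as well without each of the replicates in turn. SEC11C, a catalytic subunit of signal peptidase, had 148, 83.6 and 96.3 CPM at 6 h and 49.4, 26.8 and 27.1 CPM at 2 h (1.68 ± 0.08; adjusted p = 0.0526 without the block, edgeR). SRP19 (1.39), SSR3 (1.27), SRP68 (1.09), SRPRB (1.07) and the channel subunits SEC61G (1.03) and SEC61A1 (1.01) rose. SEC11A, the other catalytic subunit, stood at 0.17 (adjusted p = 0.129), and SRP9 and SRP14, which form the Alu domain of the signal recognition particle, at 0.00 and -0.04. Of 40 genes of COPII, COPI and ER-Golgi traffic 31 rose and 1, ERGIC1 (-0.36), fell, with a median of 0.76. SEC24D, a cargo-binding subunit of the COPII coat, had 464, 486 and 584 CPM at 6 h and 78.1, 109 and 119 CPM at 2 h (2.34 ± 0.10). The SNARE protein BET1 (1.91), the coat subunit SEC23B (1.67) and PREB, which activates the small GTPase of the coat (1.48), followed. SEC24B (-0.09) was not called. The UPRE core was in 6 of the 25 called higher members with a promoter, SEC24A, SEC13, MIA3, COPB1, COPB2 and STX5. Without the block 3 translocation genes and 12 traffic genes rose and 0 fell in either list.

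**Figure D3:**
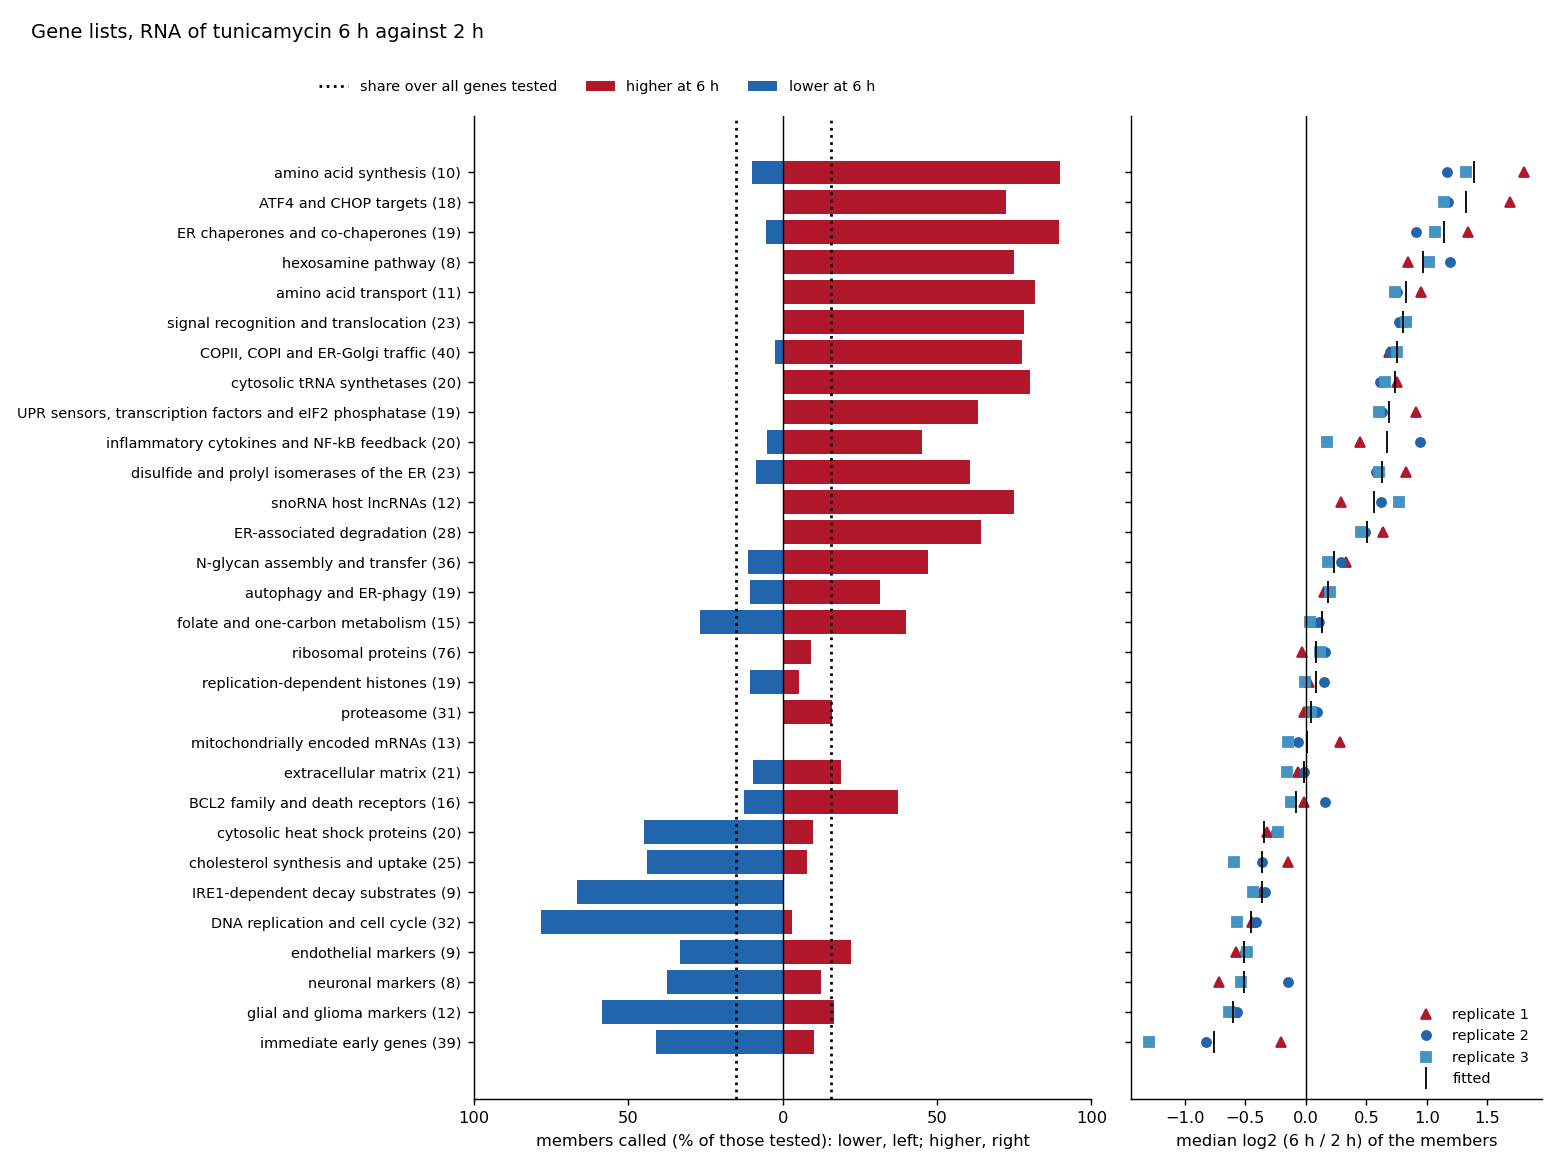
Left, share of the tested members of each gene list (number tested in brackets) called higher at 6 h (red, right) or lower at 6 h (blue, left), with dotted lines at the shares over all genes, 15.7% and 15.0%. Right, median log2 ratio of 6 h over 2 h of the members in each replicate pair and in the fit; the 2 lists with fewer than 8 tested members, and 1 list not reported here, are not drawn.

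In the pathway that tunicamycin blocks more members rose than fell. Of 36 genes of N-glycan assembly and transfer 17 rose and 4 fell, with a median of 0.23. Over all genes 15.7% rose and 15.0% fell, and the number of falls in the list is not above that share. DPAGT1, the enzyme that tunicamycin inhibits, had 40.3, 37.5 and 40.7 CPM at 6 h and 28.5, 26.9 and 32.0 CPM at 2 h (0.44 ± 0.08, adjusted p = 0.00589, edgeR). The groups did not overlap. The mannosyltransferase ALG2 (1.65), the oligosaccharyltransferase subunits OSTC (1.20) and MAGT1 (1.02), NUS1, needed for dolichol synthesis (1.10), and the catalytic subunits STT3A (0.43) and STT3B (0.31) rose. The dolichol kinase DOLK fell to 12.3, 11 and 10.4 CPM at 6 h, against 20.5, 17.5 and 22.2 CPM at 2 h (-0.83 ± 0.11), and the glucosyltransferases ALG6 (-0.83), ALG10 (-0.44) and ALG8 (-0.33) fell too. Under library-size scaling the list held 13 higher and 11 lower members, without replicate 1 17 and 6, without replicate 2 11 and 3, without replicate 3 15 and 2, and without the block 4 and 0. The hexosamine pathway, which makes the sugar donor UDP-GlcNAc, had 6 of 8 members higher and 0 lower (median 0.97). GFPT1, its first and rate-limiting enzyme, had 619, 593 and 780 CPM at 6 h and 117, 105 and 98.9 CPM at 2 h (2.63 ± 0.12). UAP1 (1.99), PGM3 (1.88) and the O-GlcNAc transferase OGT (1.06) rose, and GFPT2, at 0.88, had an adjusted p of 0.0656. Without the block 3 of these rose.

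Among UPR sensors, transcription factors and eIF2 phosphatase genes, 12 of 19 rose and 0 fell, with a median of 0.69. ERN1, which encodes IRE1, had 49.6, 80.1 and 90.6 CPM at 6 h and 11.3, 25.6 and 30.4 CPM at 2 h (1.78 ± 0.12; adjusted p = 0.0792 without the block, edgeR). EIF2AK3, which encodes PERK, had 128, 98.7 and 116 CPM at 6 h and 31.8, 43.8 and 50.7 CPM at 2 h (1.45 ± 0.18). ATF6 had 248, 188 and 215 CPM at 6 h and 139, 122 and 141 CPM at 2 h (0.69 ± 0.08), while ATF6B stood at -0.08 (adjusted p = 0.623). ERN1, EIF2AK3 and ATF6 lay higher in every 6 h library, and the fitted change of ATF6 was the smallest of these. XBP1 mRNA, spliced and unspliced together, had 564, 412 and 467 CPM at 6 h and 161, 218 and 226 CPM at 2 h (1.26 ± 0.18). ATF4 had 907, 749 and 796 CPM at 6 h and 483, 415 and 423 CPM at 2 h (0.89 ± 0.07). DDIT3, the transcription factor CHOP, had 548, 198 and 191 CPM at 6 h and 120, 92.4 and 58.5 CPM at 2 h (1.66 ± 0.21, adjusted p = 0.00423, edgeR). Its call was lost without the filter on low counts (adjusted p = 0.0571) and without the block (0.109). The gene (chr12:57516588-57520517) overlaps MARS1 (chr12:57488068-57516652, also called, 0.78) at the ends of the spans alone. Reads of that shared stretch cannot be told apart where the counting ignored strand. PPP1R15A (GADD34), the stress-induced partner of the eIF2 phosphatase, rose by 1.37, and its constitutive counterpart PPP1R15B stood at -0.11. ATF3 had 67.3, 73.7 and 69.5 CPM at 6 h and 24.9, 117 and 249 CPM at 2 h, so the pairs went different ways (adjusted p = 0.739). Without the block 4 members rose, and without replicate 1 11 rose and 3 fell.

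Targets of ATF4 and CHOP rose with a median of 1.32: 13 of the 18 tested were called higher and 0 lower, and FGF21 was too low to be tested. TRIB3, a pseudokinase that binds AKT and ATF4, had 767, 702 and 767 CPM at 6 h and 50.0, 96.7 and 78.1 CPM at 2 h (3.36 ± 0.22, adjusted p = 0.000552, edgeR). The peptide hormone ADM2 had 11.5, 29.0 and 31.7 CPM at 6 h and 0.734, 4.57 and 4.04 CPM at 2 h (3.15 ± 0.25). STC2, a secreted glycoprotein, had 491, 633 and 792 CPM at 6 h and 52.3, 102 and 90.3 CPM at 2 h (3.00 ± 0.13). INHBE (2.40), the stress cytokine GDF15 (1.86), VEGFA (1.59) and SESN2 (1.53) were also called. CHAC1, which degrades glutathione, had 57.5, 59.3 and 70.1 CPM at 6 h and 32.9, 69.4 and 67.5 CPM at 2 h, so the times overlapped (0.21, adjusted p = 0.479). In untreated cells CHAC1 stood at 1.29, 6.17 and 4.64 CPM. Without the block 6 members rose, and GDF15 was not among them (adjusted p = 0.061).

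Genes of amino acid supply mostly rose. Of 10 synthesis genes 9 rose and 1, ALDH18A1 (-0.28), fell (median 1.39). CTH, the last enzyme of transsulfuration, had 39.8, 30.0 and 40.3 CPM at 6 h and 5.76, 10.5 and 10.8 CPM at 2 h (2.06 ± 0.26). ASNS, asparagine synthetase, had 510, 381 and 464 CPM at 6 h and 131, 173 and 205 CPM at 2 h (1.43 ± 0.17). GOT1 (1.89), GPT2 (1.70), PSAT1 (1.35), PYCR1 (1.31) and PSPH (1.26) rose, and PHGDH, which opens the serine pathway, rose by 0.44. Of 11 amino acid transporters 9 rose and 0 fell (median 0.83), among them SLC38A1 (1.78), the glycine carrier SLC6A9 (1.71), the cystine carrier SLC7A11 (1.24) and SLC7A5 (0.68). Of 20 cytosolic tRNA synthetases 16 rose and 0 fell (median 0.74). GARS1 had 1054, 929 and 1100 CPM at 6 h and 309, 394 and 424 CPM at 2 h (1.46 ± 0.11), and WARS1 (1.49), AARS1 (1.24) and SARS1 (1.14) rose, while VARS1, RARS1, KARS1 and QARS1 were between -0.23 and 0.22 and not called. In folate metabolism the mitochondrial ALDH1L2 (2.97), MTHFD2 (1.60), SHMT2 (1.10) and MTHFD1L (0.68) rose, and SHMT1 (-0.79), the folate carrier SLC19A1 (-0.57) and TYMS (-0.50) were among those that fell. ALDH1L2 had 147, 154 and 172 CPM at 6 h and 12.9, 26.3 and 23.7 CPM at 2 h. In all 6 of the 15 folate genes tested rose and 4 fell (4 and 2 without replicate 2 or without replicate 3). Without the block 7 synthesis genes, 2 transporters, 4 synthetases and 3 folate genes rose and 0 fell, and MARS1 (adjusted p = 0.0527), SLC6A9 (0.0773), SLC7A1 (0.317), EPRS1 (0.0949) and MTHFD1L (0.292) were among those not called.

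The ASNS promoter (chr7:97872409-97872658, minus strand) carries the ATF4 and C/EBP composite at -68 to -61, in capitals, and was added after its values were seen.
ASNS: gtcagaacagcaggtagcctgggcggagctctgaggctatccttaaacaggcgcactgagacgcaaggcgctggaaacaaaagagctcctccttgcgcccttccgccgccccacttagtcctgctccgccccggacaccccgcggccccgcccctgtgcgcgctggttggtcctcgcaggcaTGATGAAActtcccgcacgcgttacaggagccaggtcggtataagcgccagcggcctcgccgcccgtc
Of the 6 called higher synthesis genes with a promoter in the table ASNS and GOT1 held the composite. Among the tRNA synthetases AARS1 and IARS1 held it, of 13. Of the called higher ATF4 and CHOP targets 0 of 8 with a promoter held it. The same was true of 0 of 8 amino acid transporters and 1 of 3 folate genes, MTHFD1L. Of all genes called higher 1.97% held it, against 1.82% of those tested and not called.

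The immediate early genes, transcription factors and feedback regulators that answer growth factor and stress signals within minutes, fell more often than they rose: 16 of 39 were called lower and 4 higher, with a median of -0.76. EGR1, a zinc finger factor, fell to 45.4, 197 and 141 CPM at 6 h, against 127, 950 and 1274 CPM at 2 h (-2.31 ± 0.36, adjusted p = 0.0128, edgeR). The untreated libraries had 301, 102 and 45.3 CPM, so EGR1 at 2 h was above the untreated level in replicates 2 and 3 and below it in replicate 1. EGR3 had 12.8, 39.8 and 27.6 CPM at 6 h and 38.1, 272 and 472 CPM at 2 h (-2.82 ± 0.58, adjusted p = 0.0357, edgeR). The call of EGR3 was lost without replicate 1 (adjusted p = 0.0571) or replicate 2 (0.312), and that of EGR1 without replicate 2 (0.123). EGR4 had 0.0503, 0.776 and 0.454 CPM at 6 h and 0.148, 3.93 and 12.3 CPM at 2 h (-3.29 ± 0.65). EGR1 (0.124), EGR3 (0.18) and EGR4 (0.196) also lost the call without the filter on low counts, where the list held 3 higher and 8 lower members. JUNB (-2.14), FOS (-1.84), KLF10 (-1.75), ZFP36, which destabilises AU-rich mRNAs (-1.74), BTG2 (-1.71), JUN (-1.42) and DUSP4 (-0.83) fell. MYC had 92.5, 169 and 210 CPM at 6 h and 28.5, 87.2 and 156 CPM at 2 h, and rose by 1.02, as KLF4 did by 0.90, DUSP5 by 0.51 and ZFP36L1 by 0.29. The medians of pairs 1, 2 and 3 were -0.21, -0.83 and -1.29, the smallest in replicate 1. FOSB (-2.10), NR4A1 (-2.26), ARC (-2.25), EGR2 (-1.86) and NR4A3 (-1.96) were not called, with adjusted p of 0.0733 to 0.176. Without replicate 2 10 members were lower and 1 higher, and without the block 0 were called in either direction.

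The EGR1 promoter (chr5:138465229-138465478, plus strand) is printed for its CArG boxes, the sites of serum response factor, at -105 to -96 and -83 to -74. The capitals mark both boxes and, before them, the UPRE core on the other strand at -137 to -131.
EGR1: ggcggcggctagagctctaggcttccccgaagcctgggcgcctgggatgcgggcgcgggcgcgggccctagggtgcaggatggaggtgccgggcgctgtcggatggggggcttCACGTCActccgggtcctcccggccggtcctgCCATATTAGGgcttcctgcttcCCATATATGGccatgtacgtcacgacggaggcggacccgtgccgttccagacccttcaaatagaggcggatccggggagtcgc
A CArG box was in EGR1 and SRF, of the 13 called lower members with a promoter, and in 1.14% of all promoters in the table.

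**Figure D4:**
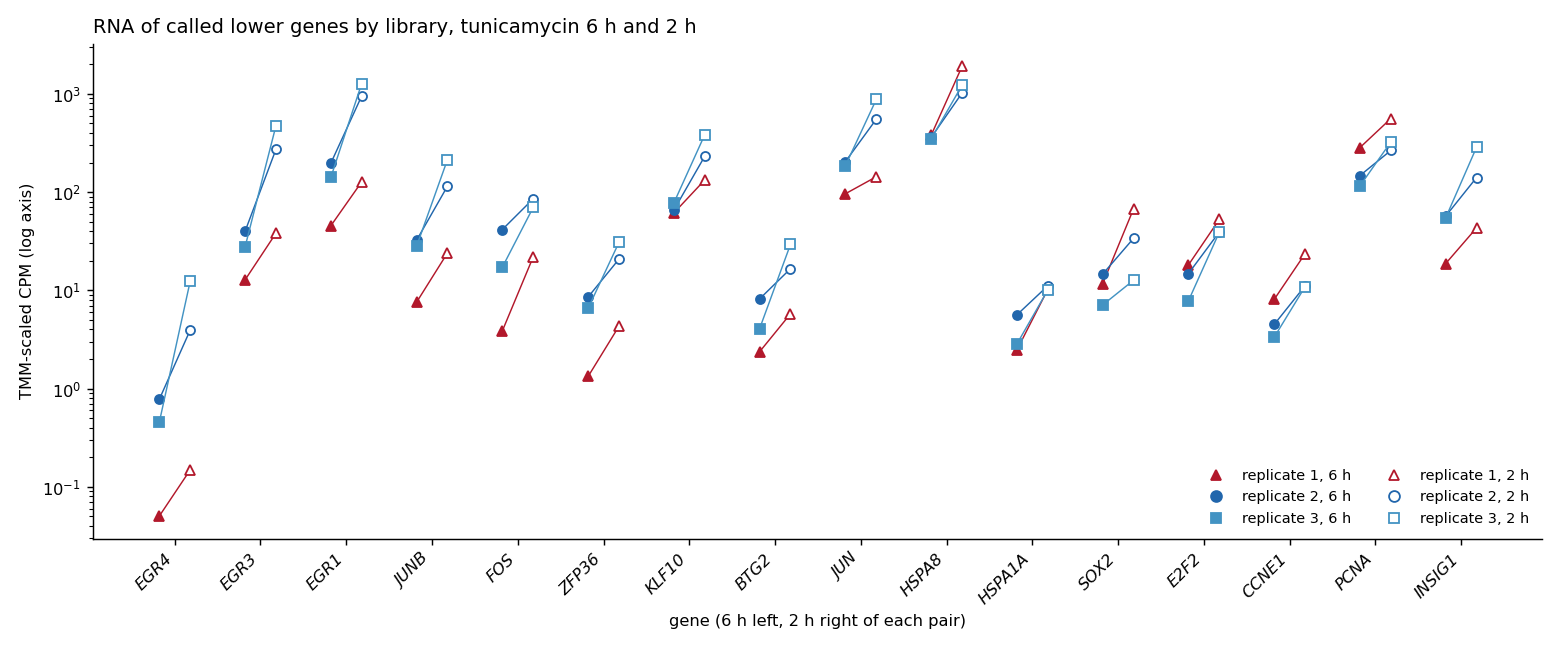
TMM-scaled CPM (log axis) of 16 genes called lower, for each replicate pair, with filled symbols at 6 h on the left and open symbols at 2 h on the right, joined by a line. Every line rises to the right, and in the EGR genes, JUNB and JUN replicate 1 lies below the other replicates at both times.

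Cytokine genes and the regulators of NF-kB moved mostly up, with 9 of 20 higher, 1 lower and a median of 0.67. IL1A had 17.2, 14.3 and 16.4 CPM at 6 h and 2.88, 4.08 and 4.43 CPM at 2 h (2.09 ± 0.17). IL6 (1.61), BIRC3 (1.59), NFKBIZ (1.19), CXCL3 (0.92), IL11 (0.74), IL1B (0.69), NFKB2 (0.66) and NFKB1 (0.40) rose. NFKBIA, the inhibitor that NF-kB induces, fell to 13.5, 38.3 and 36.3 CPM at 6 h, against 37.6, 72.8 and 117 CPM at 2 h (-1.36 ± 0.15). CXCL8, a neutrophil attractant, had 83.9, 1445 and 1608 CPM at 6 h and 15.7, 381 and 1169 CPM at 2 h, higher at 6 h in every pair, with an adjusted p of 0.0529. Without replicate 2 the list held 4 higher and 2 lower members, and without the block 1 higher and 0 lower, with BIRC3 (adjusted p = 0.202), NFKBIZ (0.126) and NFKBIA (0.221) not called.

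Cytosolic heat shock proteins fell more often than they rose, 9 against 2 of 20 (median -0.35). HSPA8, the constitutive Hsp70, fell to 378, 360 and 347 CPM at 6 h, against 1899, 1018 and 1221 CPM at 2 h (-1.88 ± 0.16, adjusted p = 0.000455, edgeR). Its untreated libraries had 1256, 1647 and 1218 CPM, close to the 2 h level. The gene spans snoRNA genes of the SNORD14 family, whose reads may be shared with it. HSPA1A (-1.61), HSPA1B (-1.07), DNAJB1 (-0.93) and DNAJA1 (-0.85) fell, and BAG3 (0.65) and CHORDC1 (0.38) rose. HSPA1A and HSPA1B are near-identical and their split is uncertain. HSP90AA1 (-0.23) and HSP90AB1 (-0.03) were not called. Without the block HSPA8 was the 1 member called, with 0 higher, and without replicate 1 4 members were higher.

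Genes of cholesterol synthesis and uptake fell in 11 of 25 cases and rose in 2 (median -0.36). INSIG1, the sterol sensor that holds SREBP in the ER, had 18.7, 56.9 and 54.8 CPM at 6 h and 43.2, 141 and 287 CPM at 2 h (-1.63 ± 0.26). FDFT1 (-0.59) and SC5D (-0.46) were among the others that fell. STARD4, a sterol carrier, rose by 0.95 and NSDHL by 0.50. The number lower was 4 without replicate 2 and 4 without replicate 3, and 0 without the block, where 1 rose; the call of NSDHL was lost without replicate 2 (adjusted p = 0.0797).

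Of 32 genes of DNA replication and the cell cycle 25 fell and 1 rose, with a median of -0.46. E2F2 had 18.1, 14.8 and 7.82 CPM at 6 h and 52.6, 39.2 and 39.1 CPM at 2 h (-1.75 ± 0.18). CCNE1, cyclin E, had 8.08, 4.49 and 3.33 CPM at 6 h and 23.6, 11.1 and 10.9 CPM at 2 h (-1.52 ± 0.12). The sliding clamp PCNA fell to 284, 147 and 116 CPM at 6 h, against 560, 265 and 323 CPM at 2 h (-1.10 ± 0.13). CCNE2 (-1.23), the licensing factor CDT1 (-0.94), MCM10 (-0.88), MCM2 (-0.84) and MCM5 (-0.60) fell, as did CCNA2 (-0.49), CDK1 (-0.28) and AURKA (-0.26), which act later in the cycle. CDC6, which loads the MCM helicase together with CDT1, went the other way, with 567, 271 and 270 CPM at 6 h and 165, 93.5 and 92.0 CPM at 2 h (1.62 ± 0.08). Untreated libraries held 36.5, 80.0 and 65.5 CPM of CDC6. Without replicate 2 16 of the genes were lower. Without the block 1 was lower and 0 higher, with CDC6 at an adjusted p of 0.0749, CCNE1 at 0.131, CCNE2 at 0.248 and PCNA at 0.232. Of 19 replication-dependent histone genes H2AC4 (-0.82) and H2BC9 (-0.70) fell and H1-4 (0.27) rose, with a list median of 0.09. Over all genes tested 15.7% rose and 15.0% fell, and neither count of the histone list lies above its share. The call of H1-4 was lost with DESeq2 (adjusted p = 0.0738), with library-size scaling (0.17), without replicate 2 (0.329) and without replicate 3 (0.214), and 0 histones were called without the block. Without replicate 1 4 histone genes were higher and 4 lower, and under library-size scaling 0 and 6.

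Of 16 genes of the BCL2 family and death receptors 6 rose and 2 fell, where 15.7% of all genes rose and 15.0% fell. The median of the list was -0.08, and -0.01, 0.16 and -0.13 in pairs 1, 2 and 3, so the list as a whole did not rise. TNFRSF10B, the death receptor DR5, had 458, 521 and 595 CPM at 6 h and 157, 207 and 313 CPM at 2 h (1.27 ± 0.12), and PMAIP1 (NOXA) rose by 1.04. BCL2 (-0.67) and the death-promoting BCL2L11, known as BIM (-0.89), fell, and BBC3 (PUMA) stood at -0.11. Of 19 autophagy and ER-phagy genes 6 rose and 2 fell (median 0.18). WIPI1 had 121, 90.1 and 106 CPM at 6 h and 20.8, 26.4 and 28.0 CPM at 2 h (2.08 ± 0.15), and MAP1LC3B (1.86) and the ER-phagy receptor CCPG1 (1.02) rose, while the receptors RETREG1 (-0.56) and TEX264 (-0.47) fell. Without replicate 2 the counts, higher and lower, were 2 and 2 for the BCL2 family and 4 and 1 for autophagy. Without replicate 3 the BCL2 family counted 3 and 2, and autophagy 5 and 1. Without the block they were 1 and 0 for the BCL2 family and 2 and 0 for autophagy, and TNFRSF10B (adjusted p = 0.0696), BCL2L11 (0.08) and MAP1LC3B (0.0563) were not called.

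Of 9 mRNAs known as substrates of IRE1-dependent decay, the cleavage of ER-bound mRNAs by the IRE1 nuclease, 6 fell and 0 rose (median -0.37). PMP22 had 113, 128 and 148 CPM at 6 h and 228, 197 and 263 CPM at 2 h (-0.82 ± 0.09). SCARA3 (-0.62), CD59 (-0.46), HGSNAT (-0.39), BLOC1S1 (-0.37) and SPARC (-0.36) fell, and COL6A1 (-0.02) and PDGFRB (-0.11) were not called. The number was 3 without replicate 2, 2 without replicate 3 and 0 without the block. SPARC was not called without replicate 2 (adjusted p = 0.121) or replicate 3 (0.165), nor HGSNAT without replicate 3 (0.0617). Of 21 extracellular matrix genes 4 rose, COL6A3 (0.88), TNC (0.67), COL6A2 (0.59) and FN1 (0.38), and 2 fell, COL4A1 (-0.39) and SPARC, with a median of -0.01. Of all genes 15.7% rose and 15.0% fell, and the counts of the matrix list lie near these shares. Here 1 rose and 1 fell without replicate 2, the same numbers held without replicate 3, 5 rose and 6 fell without replicate 1, 4 rose and 7 fell under library-size scaling, and 0 were called without the block. FN1 had adjusted p of 0.139 and 0.0976 without replicates 2 and 3, and COL6A2 0.156 and 0.121.

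Ribosomal proteins and proteasome subunits moved little. Of 76 ribosomal protein genes 7 rose and 0 fell, where 15.7% of all genes rose and 15.0% fell, with a median of 0.09, which was -0.03 under library-size scaling. RPL26 (0.42), RPL10 (0.37), RPL3 (0.33) and RPS23 (0.29) were among those called. The number was 21 without replicate 1 and 0 without replicate 2, without replicate 3 or without the block. Of 31 proteasome genes 5 rose and 0 fell, with a median of 0.04 (-0.08 under library-size scaling), led by PSMA5 (0.43), and 1 was called without replicate 3 and 0 without replicate 2 or the block. Under library-size scaling 2 ribosomal genes rose and 3 fell, and 1 proteasome gene rose and 3 fell. Pseudogene copies can split reads of both families. The 13 mitochondrially encoded mRNAs gave 0 calls by edgeR at a median of 0.01, and 0 without the block. MT-ND4, with 326, 1629 and 1439 CPM at 6 h and 229, 1682 and 1463 CPM at 2 h, was lower in replicate 1 at both times. Of 12 host lncRNAs of small nucleolar RNAs, which are spliced and turned over quickly when translated, 9 rose and 0 fell (median 0.56). SNHG8 had 51.5, 31.1 and 31.5 CPM at 6 h and 29.9, 17.1 and 17.7 CPM at 2 h (0.83 ± 0.08), and SNHG15 (0.80), EPB41L4A-AS1 (0.72) and ZFAS1 (0.70) rose. Without replicate 2 4 were called, and 0 without the block.

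The markers of the labelled cell type moved as well. Of 12 glial and glioma markers tested 7 fell and 2 rose, with a median of -0.60. SOX2, a stemness factor, had 11.7, 14.6 and 7.09 CPM at 6 h and 67.5, 33.8 and 12.7 CPM at 2 h (-1.53 ± 0.36). NES, nestin, fell to 666, 842 and 682 CPM at 6 h, against 1048, 1063 and 1077 CPM at 2 h (-0.55 ± 0.09), and S100B (-0.82) and FABP7 (-0.66) fell. OLIG2 had 27.6, 38.2 and 43.2 CPM at 6 h and 9.32, 19.2 and 24.1 CPM at 2 h (1.13 ± 0.14), while OLIG1, under 1 CPM in all 6 libraries, fell by 2.70 on the log2 scale. GFAP rose by 0.81 at 1.59 to 3.23 CPM. The summed level of the list was 2640 to 3837 CPM at 6 h and 3227 to 4031 CPM at 2 h. Markers of other cell types were low: the 10 blood markers summed to 1.48 to 1.76 CPM at 6 h and 1.39 to 1.78 CPM at 2 h, the 10 epithelial markers to 7.91 to 12.6 CPM at 6 h and 9.27 to 11.3 CPM at 2 h, and the 10 endothelial markers to 3.43 to 7.32 CPM at 6 h and 3.75 to 8.0 CPM at 2 h. The neuronal list summed to 166 to 203 CPM at 6 h and 113 to 120 CPM at 2 h, but most of that was SYT1. SYT1, called higher (1.21), had 169, 131 and 163 CPM at 6 h and 64.2, 64.1 and 70.5 CPM at 2 h. TUBB3 (-0.91), RBFOX3 (-1.10) and GAD1 (-0.53) were called lower, and the median of the neuronal list was -0.51. Blood and epithelial markers gave 1 call higher each, PTPRC (0.95) and ESRP1 (1.95), and the epithelial CLDN4 was lower (-0.95), as were the endothelial KDR (-1.73), CLDN5 (-1.11) and VWF (-0.83), while the endothelial receptors TIE1 (1.68) and TEK (1.59) were higher. TEK had 0.799, 0.803 and 0.69 CPM at 6 h and 0.2, 0.325 and 0.245 CPM at 2 h. VWF lost its call without replicate 2 (adjusted p = 0.111) or replicate 3 (0.0595), and GAD1 (0.0565) and PTPRC (0.091) lost theirs without replicate 2. Without the block 0 glial and 0 blood markers were called, and 1 neuronal (SYT1), 1 epithelial (ESRP1) and 1 endothelial marker (TEK) were higher and 0 lower.

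Outside the lists, the steepest rises among called genes with a symbol, a mean of at least 50 counts and 1 sign in all pairs were in genes nearly silent at 2 h. CMKLR2, a chemerin receptor (ENSG00000183671.12), had 6.74, 2.62 and 2.90 CPM at 6 h and 0.119, 0.0695 and 0.118 CPM at 2 h (5.27 ± 0.25). KLHDC7B had 1.92, 6.07 and 6.81 CPM at 6 h and 0.0519, 0.216 and 0.127 CPM at 2 h (5.20 ± 0.23). HID1, a protein of secretory granule formation, had 7.34, 10.9 and 15.9 CPM at 6 h and 0.408, 0.433 and 0.435 CPM at 2 h (4.67 ± 0.21). All of these lay above their 2 h range in every replicate, which the choice by fold change and by sign favours. The same held for 13.3% of all genes tested. SPRR2D (4.58), TMEM92 (4.19), TMC3 (3.96), KLHL30-AS1 (5.18) and BHLHA15, also called MIST1, a factor of secretory cells (3.93), belong to the same set. BHLHA15 overlaps TECPR1, and CMKLR2, KLHDC7B, HID1 and TMC3 each overlap a lncRNA, so their reads may be shared. ESM1 had 0.0692, 5.56 and 9.54 CPM at 6 h and 0.0668, 0.201 and 0.263 CPM at 2 h (4.50 ± 0.79), that is, it moved in replicates 2 and 3 alone, and its call was lost without replicate 2 (adjusted p = 0.276) or replicate 3 (0.134). Without the block KLHL30-AS1 (0.0526) and ESM1 (0.14) were not called. The pseudogene RPLP0P2 (4.14) lost its call without replicate 2 (0.0618) or replicate 3 (0.0671).

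The steepest falls were in EGR4 (-3.29), C17orf99 (-3.01), C4orf54 (-2.93), EGR3 (-2.82), TRIL (-2.74), LRFN1 (-2.57), RGMA (-2.55), TLX1 (-2.51), NCALD (-2.43) and TREH (-2.41). TRIL, a partner of Toll-like receptors in astrocytes, had 0.704, 1.42 and 0.799 CPM at 6 h and 5.09, 6.86 and 7.07 CPM at 2 h. NCALD, a neuronal calcium sensor, fell to 9.09, 6.28 and 3.08 CPM at 6 h, against 31.2, 29.8 and 31.1 CPM at 2 h, and in untreated cells it stood at 37.1, 10.9 and 8.43 CPM. RGMA, a repulsive guidance molecule and BMP coreceptor, had 0.465, 2.32 and 0.944 CPM at 6 h and 4.67, 6.86 and 6.99 CPM at 2 h, and was not called without replicate 3 (adjusted p = 0.0608). NCALD (0.0976) and RGMA (0.0731) lost their calls without the filter on low counts. Without the block 6 of these 10 genes were not called, EGR4 (adjusted p = 0.242), C17orf99 (0.182), LRFN1 (0.154), TREH (0.151), EGR3 (0.106) and RGMA (0.0855). By kind of gene, 18.9% of the 14648 protein-coding genes tested were higher and 20.2% lower, against 11.5% and 5.01% of 3375 pseudogenes.

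For libraries that the contrast did not use, the same genes are given as values, without a test. In ribosome footprints of the same treatment, 24.0% of 13792 genes with enough reads were higher at 6 h in all 3 pairs and 24.0% lower. Of the 18 ER chaperones with footprints 15 were higher in all pairs and 0 lower, of 40 traffic genes 28 and 3, of 20 tRNA synthetases 18 and 0, of 32 replication and cell cycle genes 2 and 19, and of 38 immediate early genes 6 and 19. Other lists went less with their RNA: of 36 N-glycan genes 14 were higher and 11 lower, of 31 proteasome genes 16 and 2, of 76 ribosomal protein genes 6 and 13, and of 9 glial markers 1 and 3. The footprint median of these 9 glial markers was 0.10. The RNA median of -0.60 covers the 12 glial markers tested, so the 2 medians are of unlike sets. DDIT3 footprints had log2 ratios of 2.36, 3.11 and 2.95 in pairs 1, 2 and 3, and those of CTH were 3.67, 3.97 and 3.73. HSPA8 footprints were lower in all pairs, at -1.95, -1.64 and -1.12. In the RNA of cells given thapsigargin, an inhibitor of the ER calcium pump, at 200 nM for 6 h and for 2 h, with 1 library each, 6.76% of the genes were at least 2-fold higher at 6 h and 7.47% lower. The median log2 ratio there was 0.80 for ER chaperones, 1.08 for amino acid synthesis, -0.57 for replication and cell cycle and -0.87 for immediate early genes, against -0.02 for all genes, of which 48.3% lay above 0 and 51.7% below. For cholesterol genes it was 0.03, against -0.36 under tunicamycin, and for endothelial markers 0.58, against -0.51. Of the 10 endothelial markers 1 or 2 reached 1 CPM in each tunicamycin library, so these medians rest mostly on genes near the floor. The difference between the drugs was not tested. HSPA5 had a ratio of 1.64, TRIB3 2.20 and HSPA8 -1.78. The pair has no replicate check.

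**Figure D5:**
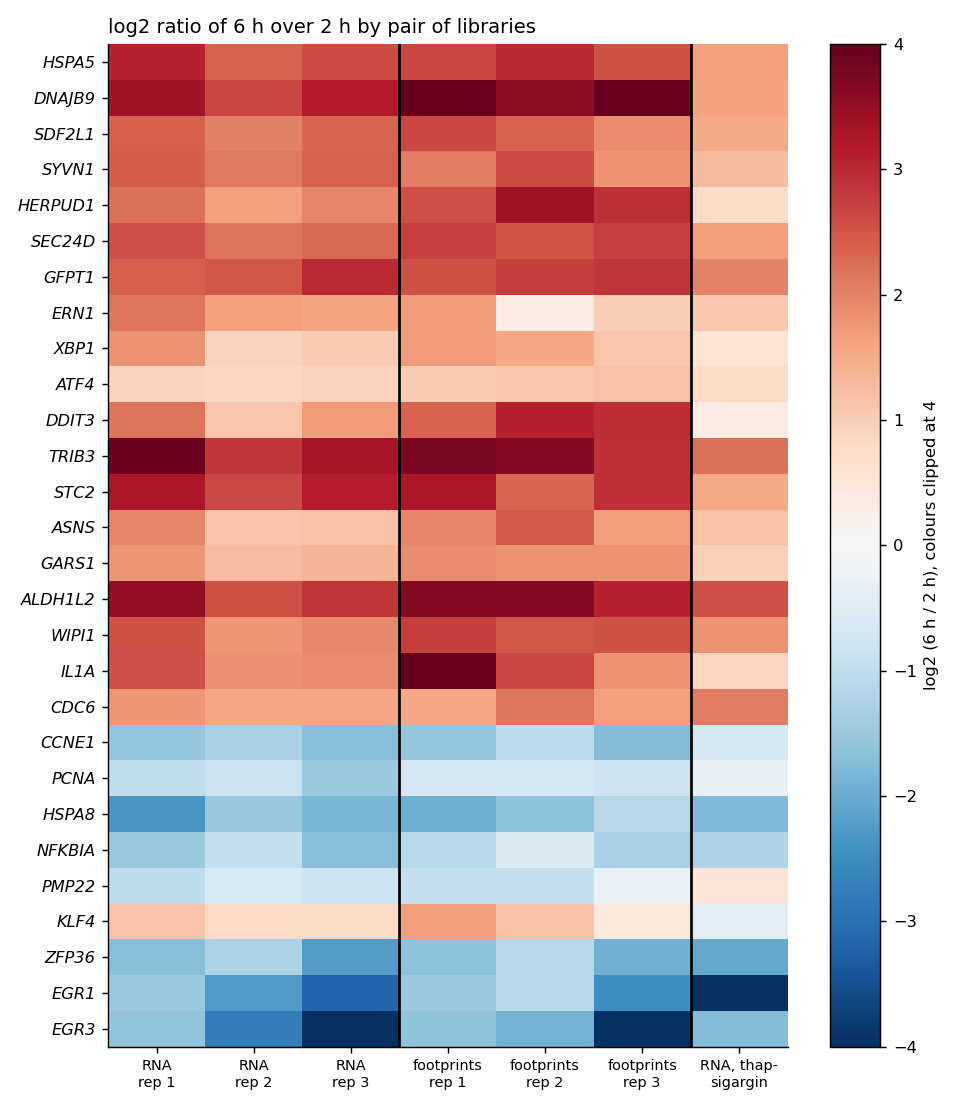
Log2 ratio of 6 h over 2 h by pair of libraries (columns) for 28 genes (rows): tunicamycin RNA, tunicamycin footprints, and the single thapsigargin RNA pair, with colours clipped at 4 in size. UPR genes are red and HSPA8 and the EGR genes blue in all columns, while PMP22 and KLF4 take the opposite sign under thapsigargin.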

How the data were processed

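RNA-Seq libraries of LN308 cells were deposited by the authors as raw counts of reads per gene. The submitters' processing notes name STAR 2.5.4b, HTSeq, DESeq2 and build GRCh38; the annotation and the handling of strand were not given in the sources used here. Genes were kept by filterByExpr (minimum count 10), scaled by TMM and tested with edgeR 4.0.16 in R 4.3.3 (glmQLFit robust, glmQLFTest) on the 6 libraries, with the replicate number as block. Across genes, deviations from the group means of same-numbered libraries correlated at 0.773, 0.595 and 0.586. Replicate 2 at 1 time with replicate 3 at the other gave 0.463 in both cases. Crosses with replicate 1 gave -0.657 to -0.626. These values set replicate 1 apart from the others. The pairing of 2 with 2 and of 3 with 3 rests on a smaller difference. Benjamini-Hochberg adjustment covered all 27678 genes tested. Ratios by pair, and levels of libraries outside the fit, use TMM-scaled CPM with a prior of 0.5 counts. Reference tables gave symbols to 41844 of 58278 entries.

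The members and the 33 gene lists (685 genes, 664 of them tested) were chosen with earlier results of these data known. The genes followed through every alternative are 150: the 10 largest rises and 10 largest falls among calls that average 50 counts or more and have 1 sign in every pair, up to 4 called members per list by p (2 where a list had no call), and 10 marker genes. Other members are named to show how a list divides, and were picked after their values were seen. On simulated counts for this contrast (27252 genes), 92.5% of 67 genes changed 2-fold were called, and 100% of the 67 changed 4-fold and of the 66 changed 8-fold, with 5 unchanged genes called. The simulation gave all genes 1 common dispersion and changed only genes that average at least 50 counts. Each changed gene had the same fold in every pair. The real counts differ in these points, so the shares do not measure power or false calls in these data. Results for some genes, and for 1 list, are not reported here. Alternatives were the block, the libraries in the fit, library-size scaling, DESeq2 1.42.0, the filter on low counts, and each replicate left out.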

Additional observations from a re-analysis of the deposited data

Results flagged for a closer look

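For 10 named genes, all called in the tunicamycin contrast, the 3 tunicamycin pairs went one way and the single thapsigargin pair the other; the difference was not tested. ESM1 and KLF4 were higher at 6 h than at 2 h of tunicamycin and had thapsigargin log2 ratios of -0.70 and -0.46. The genes lower at 6 h of tunicamycin had thapsigargin ratios of 1.18 for VWF, 0.59 for BCL2L11, 0.57 for KDR, 0.52 for PMP22, 0.17 for COL4A1, 0.16 for CLDN5, 0.0329 for FDFT1 and 0.0209 for TP53INP1. VWF, KDR and CLDN5 were under 2 CPM in all 6 tunicamycin libraries, and FDFT1 and TP53INP1 lay close to 0. Each thapsigargin time has 1 library, and both held mitochondrial mRNA shares near those of replicate 1 (0.492% at 6 h and 0.587% at 2 h), whose part in these values was not tested.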

How the results depend on the processing

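The 8503 calls (4358 higher, 4145 lower) were 737 (542 and 195) with no replicate block and 305 (242 and 63) in 1 fit of all 11 RNA-Seq libraries with no replicate block; all calls of both fits were among the 8503. Leaving out each replicate at both times gave 3937 to 10062 calls, 2111 to 4942 higher and 1826 to 5120 lower, lowest without replicate 2 and highest without replicate 1. Counts stayed within 1.5 times of these with replicate 1 against the others as block (8288), library-size scaling (9220), DESeq2 (7654), no filter (9529) and a mean of at least 50 counts (7579). Library-size scaling gave 34.5% higher among its calls, against 51.3% with TMM, and shifted the median of all genes to -0.12. The cause of the differences was not tested. Of 150 named genes, 85 lost the call without the block and 111 in the fit of all 11 libraries, 6 under library-size scaling, 8 without the filter, 1 with DESeq2 and 1 with the other block, and 1, 20 and 16 without replicates 1, 2 and 3. None of the 148 called among them changed sign under these alternatives. Of the 2 uncalled, MT-ND4 turned to -0.00297 in the fit of all 11 libraries with no replicate block and ranged from -0.0429 without replicate 1 to 0.226 without replicate 2, and MT-ND4L from -0.0139 without replicate 1 to 0.201 without replicate 2. The 6 libraries hold at least 109457859 counts each, and genes at a few counts per library remain limited by depth.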

Other observations

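Genes of 3 signalling systems outside the lists moved with time, and were picked after their values were seen, so no count is a test and they were not followed through the alternatives. Of 9 known BMP-SMAD target genes 6 were called lower at 6 h and 1, SMAD9 (0.74), higher. Over all genes tested 15.0% were called lower and 15.7% higher. ID1, an inhibitor of bHLH factors, had 20.0, 22.5 and 31.8 CPM at 6 h and 211, 97.4 and 98.3 CPM at 2 h (-2.37 ± 0.39, adjusted p = 0.0148, edgeR). ATOH8 (-2.21), ID4 (-1.91), the inhibitory SMAD6 (-1.73) and SMAD7 (-0.62) and the pseudoreceptor BAMBI (-0.98) fell, and ID3, at -1.62, had an adjusted p of 0.0509. Of 10 Hedgehog receptors and GLI factors 5 fell and 0 rose, beside the same shares over all genes. PTCH1, the receptor that is also a target of the pathway, had 16.3, 23.5 and 13.7 CPM at 6 h and 57.8, 95.8 and 83.9 CPM at 2 h (-2.15 ± 0.15), and the coreceptor GAS1 (-2.29), GLI3 (-1.09), GLI1 (-0.89) and SMO (-0.88) fell. HHIP, also a target, stood at 0.35 with an adjusted p of 0.227 by edgeR. In the single thapsigargin pair SMAD7 had a log2 ratio of 0.117 and GLI1 of -0.00143. The other called lower genes of both sets were below 0 there.

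Secreted factors and receptors rose among the steepest genes. PTX3, a soluble pattern recognition protein, had 110, 135 and 173 CPM at 6 h and 7.15, 13.7 and 22.2 CPM at 2 h (3.39 ± 0.20). IL1RL1, the IL-33 receptor, had 4.21, 48.4 and 74.3 CPM at 6 h and 0.312, 2.95 and 7.04 CPM at 2 h (3.72 ± 0.15). The cytokine TSLP had 6.52, 5.49 and 5.86 CPM at 6 h and 0.267, 0.549 and 0.444 CPM at 2 h (3.85 ± 0.25). The peptide CCK (3.23), the ErbB ligand NRG1 (2.80), TNFRSF11B (2.61) and BMP6 (2.39) were called higher too. In the single thapsigargin pair the genes named had log2 ratios from 0.32 (TNFRSF11B) to 2.45 (TSLP), and 48.3% of all genes lay above 0. CCK had 0.195 CPM there at 6 h and 0.0542 CPM at 2 h. Since the genes were picked after their values were seen, the shared sign is no support.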
